A study of Mus musculus with 4 samples.

Results

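The cytosolic and mitochondrial chaperones were examined in primary T cells of C57BL/6NJ mice, as 54 protein-coding genes of 50600 genes measured (21764 of them protein-coding). Genes were taken by symbol: the HSP70 and HSP110 families (Hspa, Hsph1), cytosolic and mitochondrial HSP90 (Hsp90aa1, Hsp90ab1, Trap1), the chaperonins (Hspd1, Hspe1, Tcp1 and Cct), the type A and type B J-domain proteins (Dnaja, Dnajb), small heat shock proteins (Hspb), the adaptor Stip1 and the factors Hsf1 and Hsf2. The endoplasmic reticulum proteins Hspa5 and Dnajb9 were left out. The rule is by symbol and gene class, and was set with earlier results of these data known.

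RNA was sequenced from a single group of 4 biological replicates, with no treated, mutant or control group beside it. Age was unknown, sex was not collected, and all 4 libraries carried the same donor entry, so the spread between libraries may be technical. The labels name total RNA sequencing and link a library protocol for polyadenylated RNA and a protocol for CD4+ T cell differentiation. Per the file headers, the alignments were named Th0, activated, sorted and 72 h. Counts summed to 34978213, 118937382, 42274502 and 95356041 in replicates 1 to 4. All 10 T cell markers reached 1 TPM (a transcript level corrected for gene length and library total) in every library, led by Trac, Trbc2, Cd5 and Cd4 at means of 1892, 1567, 1538 and 976 TPM, and their sum was 8206 to 8754 TPM. Of the B cell markers, 1 of 5 reached 1 TPM in every library (sum 2.25 to 5.59 TPM, with Pax5 at 0 in replicate 4). Of the myeloid markers, 1 of 7 did so and 5 were at 0 throughout, among them Lyz2 and S100a8 (sum 1.14 to 1.80 TPM). Of the erythroid markers, 0 of 5 did so (sum 0.165 to 1.55 TPM).

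Chaperones bind unfolded protein and keep it from aggregating. HSP70 holds short stretches of unfolded chain through cycles of ATP hydrolysis, J-domain proteins deliver the client and start the hydrolysis, and HSP110 proteins release the nucleotide. Stip1, also called HOP, passes clients from HSP70 to HSP90, which finishes the folding of kinases and steroid receptors. The ring complex TRiC (also CCT) folds actin and tubulin, and Hspd1 with its lid Hspe1 folds proteins inside mitochondria. Heat shock factor Hsf1 drives the inducible members after stress by binding heat shock elements, inverted repeats of the unit NGAAN. T cells pass through a large rise in protein synthesis on activation, and several kinases of T cell receptor signalling, Lck among them, are known clients of HSP90.

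Most of these genes were expressed, and 19 of them at 100 TPM or more in every library. In RNA from many cells together, fewer cells with a transcript and less of it per cell cannot be told apart. Of the 54 members, 41 (75.9%) reached 1 TPM in all 4 libraries, against 10868 of 21764 protein-coding genes (49.9%). Those 19 members at 100 TPM or more were 35.2%, against 8.59% of protein-coding genes. The median of the mean levels was 17.8 TPM over the members and 1.43 TPM over all protein-coding genes. Together the members made up 1.38% ± 0.0370 of all TPM (SD, n = 4) and 1.53, 1.50, 1.41 and 1.50% of the counts in replicates 1 to 4.

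The total was concentrated in a few genes. Hsp90ab1 alone held 32.3% of the members' TPM, Hsp90ab1 and Hspa8 together 42.6%, and the 10 highest members 78.8%. By role, with all exonic bases as gene length, cytosolic HSP90 held 35.9%, the 7 TRiC subunits 24.9%, the constitutive and tissue-restricted HSP70 genes 11.1%, and the mitochondrial chaperonin 8.67%. The mitochondrial HSP70 Hspa9 held 4.90%, Stip1 3.60%, the type A J-domain proteins 2.73%, HSP110 2.60%, the type B J-domain proteins 2.20% and Trap1 1.87%. The 2 inducible HSP70 genes held 0.0802% and the small heat shock proteins 0.215%. With the longest coding transcript as the length, cytosolic HSP90 held 28.7, 30.0, 30.7 and 30.8% in replicates 1 to 4 and TRiC held 31.8, 31.1, 30.3 and 30.9%. On that scale the 7 TRiC subunits together were above cytosolic HSP90 in 3 of 4 libraries, so which role was highest depended on the length. The TRiC shares leave out the subunit gene Cct6a, which fell outside the rule, so they understate the whole complex. With transcript length Cct6a measured 455, 429, 405 and 425 TPM in replicates 1 to 4. The plot of members by library shows mean levels from 0.00278 TPM (Hspa1l) to 4439.7 TPM (Hsp90ab1) among the members with counts, and a far smaller spread between libraries of 1 gene. In the order of mean level, 12 of the 18 neighbouring pairs among the 19 highest members had ranges over the libraries that did not overlap. The 6 pairs that overlapped were Cct5 and Hspa9, Stip1 and Hsp90aa1, Hsp90aa1 and Tcp1, Cct4 and Hspe1, Cct3 and Trap1, and Trap1 and Dnaja2.

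**Figure D1:**
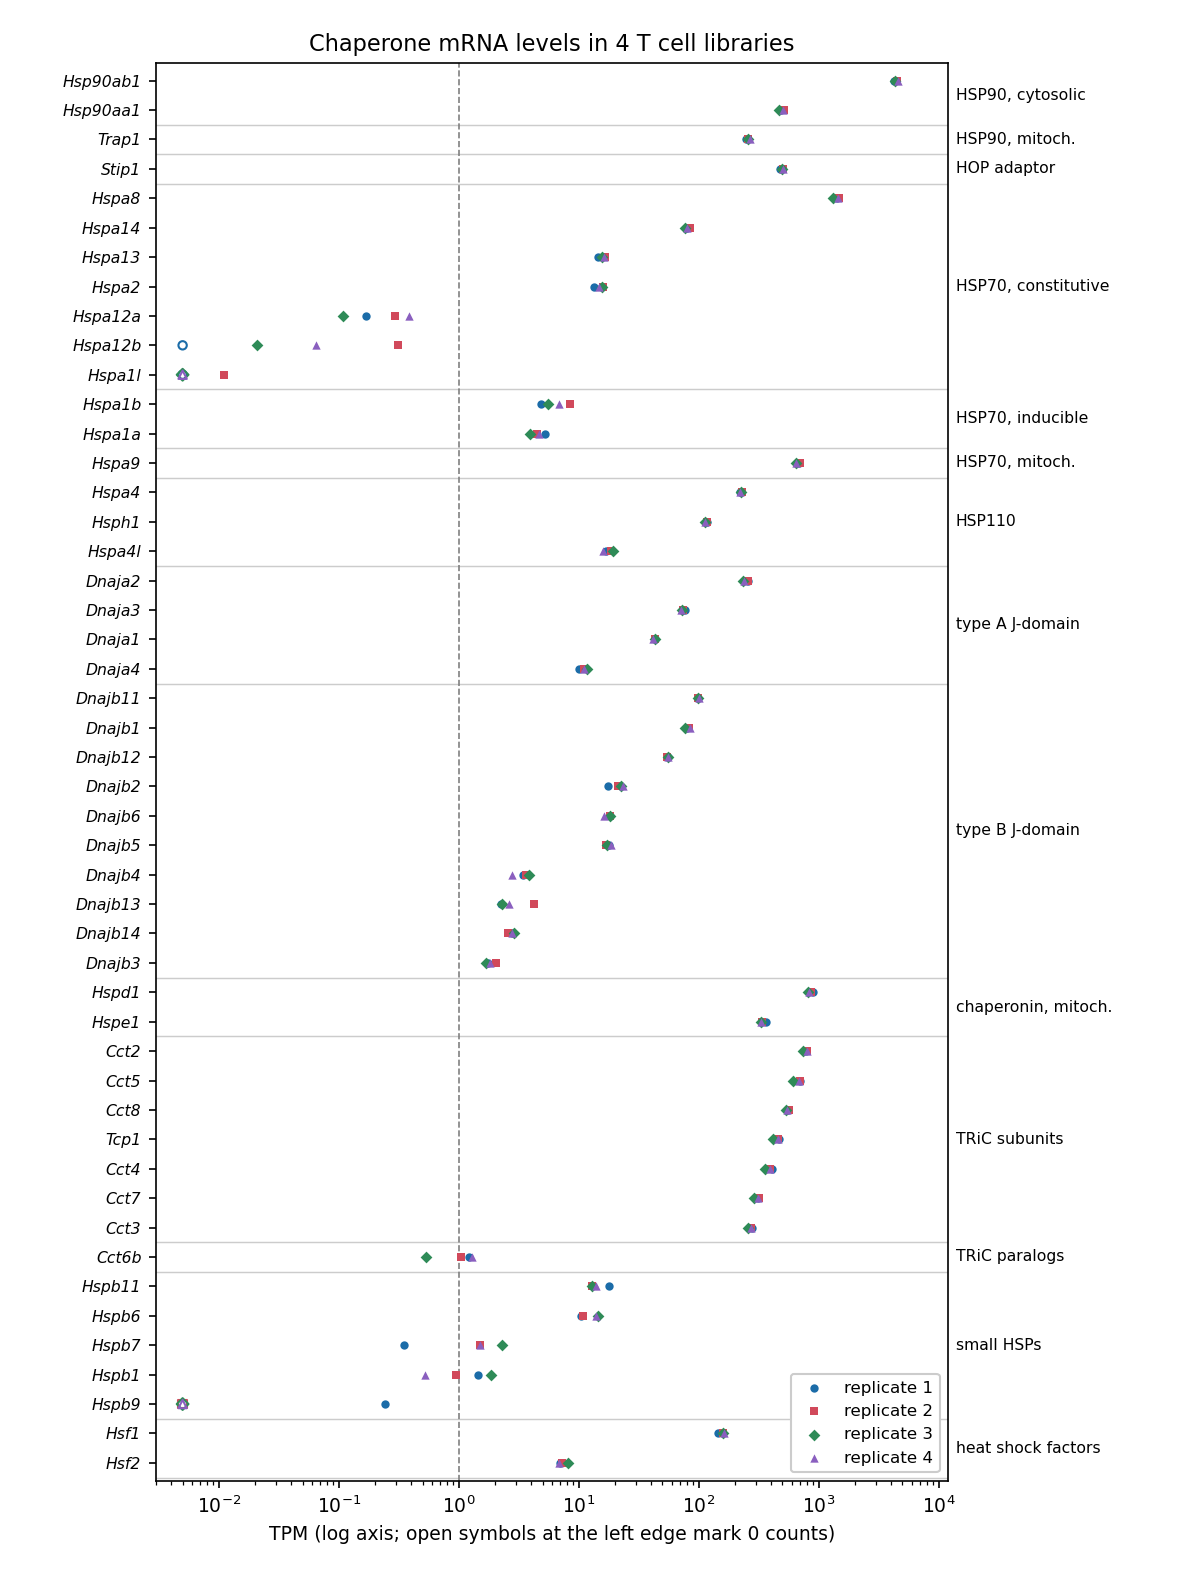
TPM (log axis) of the 48 members with at least 1 count, 1 row per gene, grouped by role, with 1 symbol per library and open symbols for 0 counts. Hsp90ab1 lies at 4226 to 4632 TPM and Hspa8 at 1324 to 1469 TPM, while libraries of 1 gene separate visibly only among low genes such as Hspb7 (0.352 to 2.28 TPM). The dashed line marks 1 TPM.

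The promoters of 46 members were found in RefSeq (GRCm38.p6), as 61 windows of 250 bases before to 50 after a start site, with a gene counted when any of its windows held a match. Hsp90ab1, Hspa8, Hspa9, Hsp90aa1, Cct4, Hsf1, Hspa13 and Hspb2 had none there, so the motif counts do not cover them. A heat shock element of 3 units, TTCNNGAANNTTC or GAANNTTCNNGAA on either strand, was present in Hspd1, Hspe1, Hsph1 and Dnajb6. That is 4 of 46 members (8.70%), against 179 of 27025 genes (0.662%). Hspd1 and Hspe1 were counted separately, although the same run of bases stands in the windows of both. The shorter pair of units, GAANNTTC or TTCNNGAA, which the longer element contains, was present in 16 members (34.8%), against 17.0% of genes. A CCAAT box was present in 22 members (47.8%), against 41.1% of genes, and TATAAA in 3 members (6.52%), against 15.7%. The windows with the longer element are shown with those of the inducible pair Hspa1a and Hspa1b, which hold exact matches only to the pair of units. Units with a changed base were not counted, so imperfect elements of 3 units in any window would be missed. Each runs from 250 bases before to 30 after the start site, 5′ to 3′ on the gene's strand, with the element in capitals. Hspe1 is on chr1:55087898-55088177 (plus strand), Hsph1 on chr5:149636286-149636565 (minus), Dnajb6 on chr5:29735648-29735927 (plus), Hspa1a on chr17:34972127-34972406 (minus) and Hspa1b on chr17:34959209-34959488 (minus).
Hspe1: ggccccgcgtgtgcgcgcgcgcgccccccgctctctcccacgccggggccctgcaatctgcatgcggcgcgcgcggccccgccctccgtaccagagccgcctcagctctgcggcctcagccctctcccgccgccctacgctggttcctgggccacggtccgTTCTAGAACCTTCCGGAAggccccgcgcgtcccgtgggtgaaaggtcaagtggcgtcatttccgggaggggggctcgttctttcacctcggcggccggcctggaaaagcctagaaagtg
Hsph1: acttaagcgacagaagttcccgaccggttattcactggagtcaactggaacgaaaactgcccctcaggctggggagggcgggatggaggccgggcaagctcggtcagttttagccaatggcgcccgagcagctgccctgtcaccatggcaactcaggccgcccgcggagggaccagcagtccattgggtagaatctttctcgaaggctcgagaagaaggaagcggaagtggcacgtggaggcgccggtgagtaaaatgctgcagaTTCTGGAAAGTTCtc
Dnajb6: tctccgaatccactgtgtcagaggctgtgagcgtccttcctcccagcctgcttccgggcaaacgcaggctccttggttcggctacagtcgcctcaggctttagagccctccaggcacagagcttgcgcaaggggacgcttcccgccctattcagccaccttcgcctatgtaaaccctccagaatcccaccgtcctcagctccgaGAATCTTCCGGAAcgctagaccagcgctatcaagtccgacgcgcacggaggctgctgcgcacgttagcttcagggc
Hspa1a: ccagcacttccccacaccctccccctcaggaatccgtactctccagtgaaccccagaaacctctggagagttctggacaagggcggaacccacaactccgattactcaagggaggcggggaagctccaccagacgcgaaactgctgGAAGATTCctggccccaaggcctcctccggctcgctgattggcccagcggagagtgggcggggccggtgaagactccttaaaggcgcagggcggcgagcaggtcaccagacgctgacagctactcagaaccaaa
Hspa1b: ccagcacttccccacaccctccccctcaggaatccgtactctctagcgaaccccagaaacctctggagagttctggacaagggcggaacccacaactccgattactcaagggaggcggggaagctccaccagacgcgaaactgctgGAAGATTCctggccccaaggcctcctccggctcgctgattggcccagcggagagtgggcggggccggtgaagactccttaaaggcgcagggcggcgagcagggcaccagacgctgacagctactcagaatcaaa

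In Hspe1 the capital run was 18 bases long and began 89 bases before the start site. Hspd1 lies head to head with Hspe1, and the 280-base windows of the 2 genes overlapped by 275 bases. The same run therefore stands in both windows, and on the Hspd1 strand it began 144 bases before the start site of that window. The window of another Hspd1 start site, chr1:55088194-55088493, held 0 elements of 3 units. In Dnajb6 the element began 46 bases before the start site of the window shown and 127 bases before another. In Hsph1 it began 15 bases after the start site of the window shown and 36 bases after another. The windows of Hspa1a and Hspa1b were identical at 276 of 280 bases (98.57%), and both held the pair 104 bases before the start site. These are exact matches of letters, and binding was not measured.

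Cytosolic HSP90 was led by its constitutive gene. Hsp90ab1, the constitutive cytosolic HSP90 (ENSMUSG00000023944.14; mm10 chr17:45567775-45573271, minus strand), measured 4226, 4526, 4375 and 4632 TPM in replicates 1 to 4 and ranked 10th by mean TPM of all protein-coding genes. The stress-inducible partner Hsp90aa1 measured 491, 514, 466 and 508 TPM. Inside each library Hsp90ab1 was above Hsp90aa1, by 3.17 ± 0.06 on the log2(TPM + 0.1) scale (SD, n = 4), or 8.98-fold from the means. The level of Hsp90aa1 is uncertain: 58.5% of the 50-base windows of its transcript occur also in other genes, mainly in Gm12346, and reads that map to several places were not counted. For Hsp90ab1 that share was 4.49%. Hsp90ab1 was also above the endoplasmic reticulum HSP90 gene Hsp90b1 in every library, by 3.10 ± 0.06. Trap1, the mitochondrial HSP90, measured 247, 258, 258 and 267 TPM. Stip1 measured 481, 504, 492 and 503 TPM and overlapped Hsp90aa1 in range.

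Contrasts between 2 genes were tested by flipping the signs of the 4 within-library differences in every combination, an exact permutation test (two-sided) whose smallest p is 0.13, so no contrast could reach 0.05. Of 27 contrasts, 25 had the same direction in all 4 libraries (p = 0.13 by the exact test, adjusted p = 0.135 over the 27). The other 2, Hspa1b minus Hspa1a and Hspa12a minus Hspa12b, had it in 3 of 4 (exact p = 0.25, adjusted p = 0.25).

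**Figure D2:**
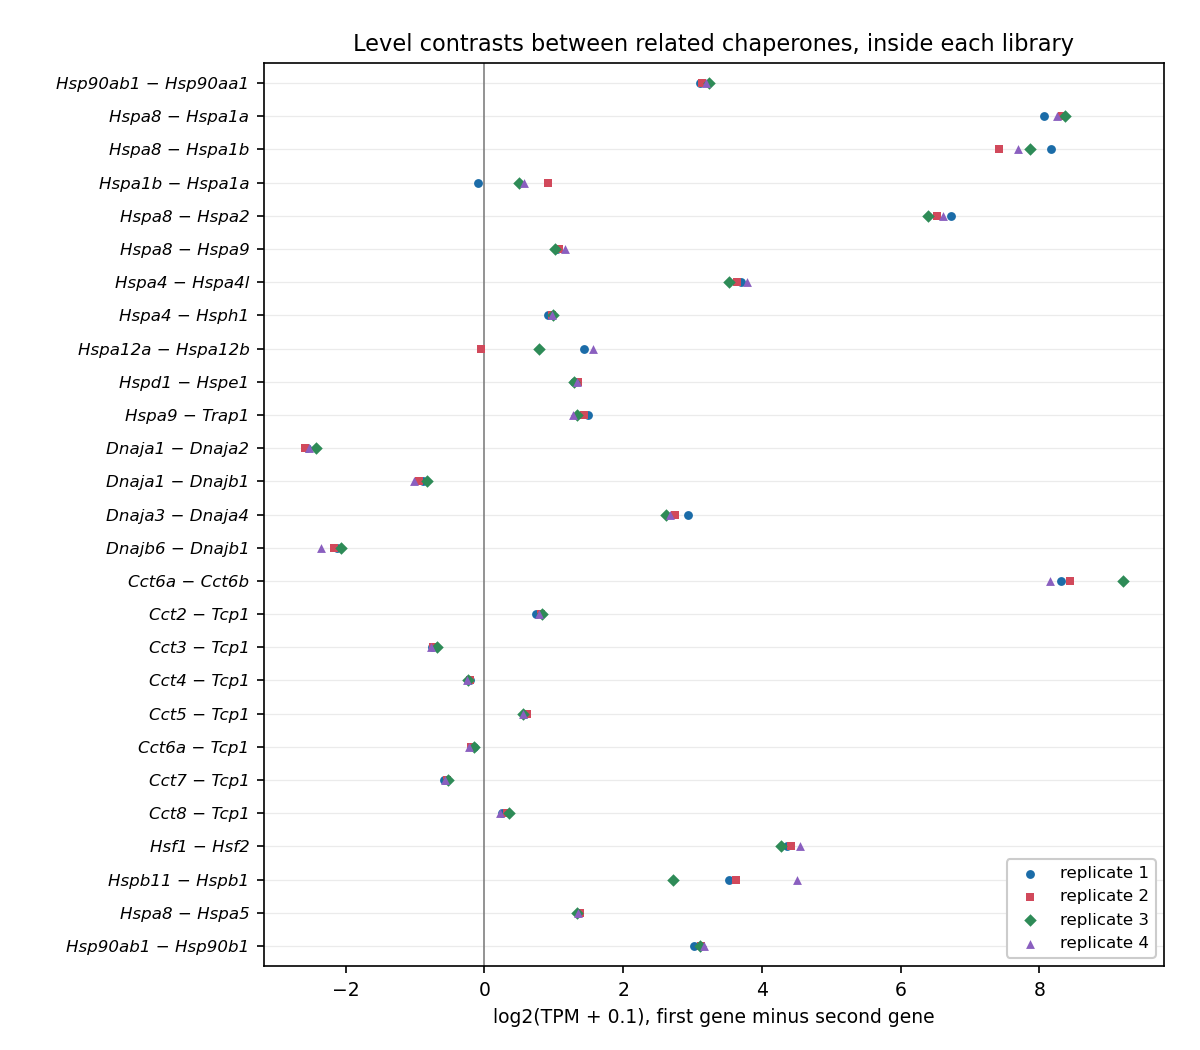
Difference of log2(TPM + 0.1), first gene minus second, for 27 pairs, with 1 symbol per library and a line at 0. All 4 symbols lie on the same side of the line in 25 pairs, and the pairs Hspa1b minus Hspa1a and Hspa12a minus Hspa12b each have 1 library on the other side.

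Among the HSP70 genes the constitutive cytosolic form was high and the inducible forms were low. Hspa8 (ENSMUSG00000015656.17; mm10 chr9:40800984-40810087, plus strand) measured 1435, 1469, 1324 and 1451 TPM. The inducible Hspa1a measured 5.25, 4.46, 3.93 and 4.64 TPM, and its neighbour Hspa1b 4.90, 8.46, 5.56 and 6.92 TPM. The groups of values did not overlap, and Hspa8 exceeded Hspa1a by 8.25 ± 0.13 and Hspa1b by 7.79 ± 0.31 on the log2(TPM + 0.1) scale. With the longest coding transcript as the length in place of all exonic bases, these differences were 9.09 and 8.62. All 3 genes have close copies: 74.8% of the 50-base windows of Hspa8 occur in other genes (mostly the Gm15459 copy), as do 60.4% of those of Hspa1a and 62.3% of those of Hspa1b. Hspa1a and Hspa1b lie 9951 bases apart on chromosome 17 and share windows with each other, so their separate levels are uncertain. Hspa1b was above Hspa1a in replicates 2, 3 and 4, whereas the difference in replicate 1 was -0.10 on the log2 scale.

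The remaining HSP70 genes covered a wide range. Hspa14, a ribosome-associated HSP70, averaged 80.7 ± 3.12 TPM. Hspa13, a microsome-associated form, averaged 15.8 ± 0.926 TPM. Hspa2, best known from male germ cells, measured 13.5, 15.9, 15.6 and 14.7 TPM, and Hspa8 exceeded it by 6.56 ± 0.14 (7.34 with transcript length). Hspa12a had 11, 62, 8 and 65 counts (0.170, 0.297, 0.108 and 0.384 TPM), and Hspa12b had 0, 42, 1 and 7 counts (0, 0.313, 0.0209 and 0.0643 TPM). These are distant relatives of HSP70, and neither reached 1 TPM in any library. Hspa1l, a testis form next to Hspa1a, had 1 count in replicate 2 and 0 elsewhere.

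The HSP110 exchange factors were led by Hspa4 at 221, 232, 224 and 220.2 TPM. Hsph1, which is heat-inducible, measured 117, 119, 113 and 113 TPM, below Hspa4 in every library. The difference, Hspa4 minus Hsph1, was 0.96 ± 0.03 with exonic length and 0.29 with transcript length. Hspa4l measured 16.9, 18.6, 19.3 and 15.9 TPM, 3.66 ± 0.11 below Hspa4.

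Hspa9, Trap1, Hspd1 and Hspe1, which work in mitochondria, were above 100 TPM in every library. Hspa9, the mitochondrial HSP70 also called mortalin, measured 694, 698, 652 and 651 TPM, and Hspa8 exceeded it by 1.08 ± 0.06. Hspa9 in turn exceeded Trap1 by 1.38 ± 0.09. Hspd1, the ring-forming HSP60, measured 892, 863, 815 and 832 TPM, and its lid Hspe1 measured 364, 337, 332 and 332 TPM. Both were highest in replicate 1. The 2 genes overlap by 112 bases at their starts on chromosome 1, on opposite strands, and the counting used strand. Hspd1 exceeded Hspe1 by 1.32 ± 0.03 with exonic length and by 0.51 with transcript length. Copies elsewhere held 44.8% of the 50-base windows of Hspd1 and 36.1% of those of Hspe1, so both levels are uncertain, and the annotated copy Hspd1-ps3 itself had 56, 171, 50 and 110 counts.

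The J-domain proteins, which deliver clients to HSP70, all lay below Hspa8 in every library. Of the type A proteins, Dnaja2 was highest at 256, 260.5, 233 and 241 TPM. The mitochondrial Dnaja3 measured 76.7, 74.5, 72.1 and 71.4 TPM, Dnaja1 43.5, 43.2, 43.2 and 41.4 TPM, and Dnaja4 9.996, 11.04, 11.7 and 11.1 TPM. All 4 ranges were apart from each other. Dnaja1 lay below Dnaja2 in every library: the difference, Dnaja1 minus Dnaja2, was -2.53 ± 0.07 with exonic length and -1.94 with transcript length. Of Dnaja1, 18.3% of the 50-base windows occur in other genes. Dnaja3 exceeded Dnaja4 by 2.74 ± 0.14.

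Of the 12 type B J-domain proteins, 10 reached 1 TPM in every library. Dnajb11, which resides in the endoplasmic reticulum and is a member by its symbol, averaged 99.0 ± 1.22 TPM. Dnajb1, the heat-inducible cytosolic partner of HSP70, measured 80.3, 83.1, 76.7 and 84.1 TPM, above Dnaja1 in every library (Dnaja1 minus Dnajb1, -0.92 ± 0.08 with exonic length). The endoplasmic reticulum membrane proteins Dnajb12 and Dnajb14 averaged 55.3 ± 0.577 and 2.77 ± 0.139 TPM. Dnajb6, which holds back aggregation of polyglutamine proteins, measured 18.3, 18.4, 18.1 and 16.3 TPM, lowest in replicate 4. The difference, Dnajb6 minus Dnajb1, was -2.18 ± 0.12 with exonic length and -1.23 with transcript length, and 35.8% of the windows of Dnajb6 occur in other genes. Dnajb2, Dnajb5, Dnajb4, Dnajb13 and Dnajb3 averaged 21.2, 17.7, 3.43, 2.86 and 1.83 TPM. Dnajb7 and Dnajb8 had 0 counts in all 4 libraries.

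The TRiC subunits were all abundant, and their levels by length were not equal. The ring holds 8 different subunits in equal number. In replicates 1 to 4, Cct2 measured 782, 809, 739 and 797 TPM, Cct5 702, 700.0, 617 and 683 TPM, and Cct8 557, 572, 536 and 543 TPM. Tcp1, the alpha subunit, measured 468, 458, 418 and 464 TPM. Other genes, mainly Acat2, hold 12.35% of its 50-base windows, so the level of this reference for the TRiC contrasts is uncertain. Below Tcp1 in mean level were Cct4 at 407, 397, 356 and 391 TPM, Cct7 at 312, 316, 289.6 and 314 TPM and Cct3 at 277, 275, 260.2 and 272 TPM. Every one of these 7 genes was lowest in replicate 3. The eighth subunit gene, Cct6a, is classed as a processed transcript in GENCODE M21 and so fell outside the protein-coding rule. It measured 421, 400.1, 376 and 398 TPM.

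The order of the subunits depended on the length used. With all exonic bases, the highest of the 8 subunits, Cct2, exceeded the lowest, Cct3, by 2.82, 2.94, 2.84 and 2.92-fold in replicates 1 to 4. Transcript length was that of the longest coding transcript, or of the longest of any class where a gene had none. On that scale the ratio of the highest to the lowest was 1.71, 1.80, 1.74 and 1.77-fold. Cct6a, itself classed as a processed transcript, was lowest. Counts alone differed by 1.55, 1.59, 1.55 and 1.62-fold. Cct3 and Cct7 have 6370 and 6778 exonic bases but coding transcripts of 1977 and 2441 bases, whereas Cct2 has 2557 and 1959. The coefficient of variation of the 8 means was 37.4% with exonic length, 19.7% with transcript length and 14.6% for CPM (counts scaled by library total alone). Against Tcp1, Cct2 stood 0.79 ± 0.04 higher with exonic length and 0.14 higher with transcript length, and Cct3 stood at -0.74 ± 0.04 and -0.09. Cct8 stood 0.29 ± 0.06 above Tcp1 with exonic length, and the direction turned with transcript length (-0.38). Cct4, Cct5, Cct6a and Cct7 differed from Tcp1 by -0.22 ± 0.02, 0.58 ± 0.02, -0.18 ± 0.03 and -0.55 ± 0.03 with exonic length, and by -0.50, 0.14, -0.66 and -0.12 with transcript length, in the same direction in all 4 libraries on both scales.

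**Figure D3:**
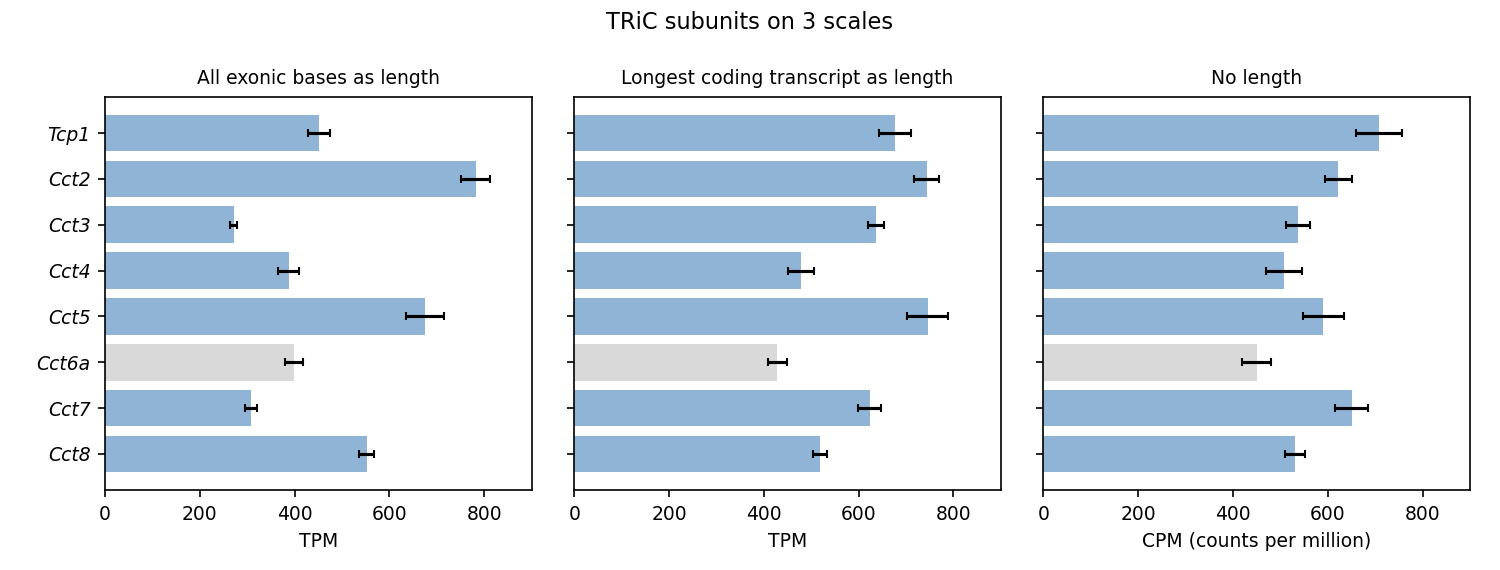
Mean level of the 8 TRiC subunit genes (Cct6a in grey, outside the rule) as TPM with all exonic bases, TPM with the longest coding transcript and CPM without length; bars are means and lines are SD over 4 libraries. Cct3 is at 271 TPM in the left panel and 637 TPM in the middle panel, while Cct2 is at 782 and 743 TPM.

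The paralogs of TRiC subunits were low or undetected. Cct6b, the testis paralog of Cct6a, measured 1.23, 1.06, 0.536 and 1.30 TPM (26, 72, 13 and 72 counts), and Cct6a exceeded it by 8.52 ± 0.47. Cct8l1 had 0 counts in all 4 libraries.

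The small heat shock proteins, which bind unfolding proteins without ATP, were low. Only Hspb11 and Hspb6 of the 8 reached 1 TPM in every library. Hspb11, a member by its symbol and a subunit of the ciliary transport complex as IFT25, measured 17.9, 12.9, 12.8 and 14.1 TPM. Its mean of 14.4 TPM was a large part of the 29.6 TPM summed over the 8 genes. Hspb6 averaged 12.5 ± 2.04 TPM. Hspb1, the mouse HSP25, had 17, 36, 25 and 16 counts (1.46, 0.958, 1.87 and 0.525 TPM). Hspb11 exceeded Hspb1 by 3.59 ± 0.73 with exonic length and by 5.17 with transcript length. The level of Hspb1 is uncertain, since 51.65% of its 50-base windows occur in other genes, mainly in Hsp25-ps1. Hspb7 had 11, 152, 82 and 123 counts (0.352, 1.51, 2.28 and 1.50 TPM), low in replicate 1. Hspb9 had 2 counts in replicate 1 and 0 elsewhere. Hspb2, Hspb3 and Hspb8, known from muscle, had 0 counts throughout. Over the 6 members with 0 counts, a count of 0 allows up to 3 counts per library, which is 0.0420 to 0.340 TPM depending on gene and library. These limits cover counting error only, and 0 counts throughout were found for 11.1% of members and 29.6% of protein-coding genes.

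Of the transcription factors of the heat shock response, Hsf1 measured 146, 159, 160.0 and 163 TPM and Hsf2 measured 7.04, 7.31, 8.14 and 6.86 TPM. Hsf1 exceeded Hsf2 by 4.40 ± 0.11 with exonic length. Hsf2 has 9606 exonic bases but a longest coding transcript of 2604 bases, and with transcript length the difference was 2.47, in the same direction in all 4 libraries. Hsbp1, a small binding partner of heat shock factors, averaged 101 TPM and was the only 1 of 5 other regulators to reach 1 TPM in every library. Hsf4 averaged 1.38 TPM.

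The partner genes of the pathway were expressed almost without exception. All 17 HSP90 co-chaperones reached 1 TPM in every library, led by Ahsa1, the activator of HSP90 ATPase, at 469 ± 4.25 TPM, then Fkbp4, Ppp5c and Stub1 at 424, 244 and 191 TPM. All 11 exchange and adaptor factors of HSP70 did so, led by Bag1, Hspbp1, St13 and Bag6 at 397, 276, 263 and 215 TPM. Of the prefoldin subunits and other TRiC assistants, which hand actin and tubulin to TRiC, 9 of 10 did so, led by Pfdn1, Pfdn5, Pfdn6 and Pfdn2 at 254, 213, 192 and 125 TPM. Of the type C J-domain proteins, 24 of 28 did so, led by Dnajc9, Dnajc15, Dnajc8 and Dnajc7 at 254, 218, 148 and 111 TPM. All 13 endoplasmic reticulum chaperones did so, led by Calr, P4hb, Hspa5 and Pdia3 at 901, 658, 555 and 553 TPM. All 9 mitochondrial proteases and unfoldases did so, led by Clpp, Lonp1, Htra2 and Afg3l2 at 307, 296, 134 and 121 TPM. Hspa8 exceeded Hspa5, its counterpart in the endoplasmic reticulum, by 1.35 ± 0.02 with exonic length and by 1.99 with transcript length.

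No member was called more variable between libraries than usual at its level. Of all genes, 14269 passed the filter on low counts and were tested with edgeR for more spread over the 4 libraries than usual at their level, and 66 of them (0.463%) were called at an adjusted p of 0.05. Of the 54 members, 45 were tested and 0 were called, with 1 at an unadjusted p under 0.05. With DESeq2 size factors 65 of the 14269 genes were called, and again 0 members. With limma's variance test 157 of the 14269 genes were called, 1 of them a member (Hspb7). With a common dispersion 955 of the 14269 genes were called, 4 of them members. Of 45 members tested, counts of 0, 1 and 4 are near the share called over all genes in the same setting. They are no result about the members. The 9 members not tested had 0 counts in at least 1 library. No member of the pathway lists was called either, with 1 HSP90 co-chaperone and 1 of the prefoldin and TRiC assistants at an unadjusted p under 0.05.

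The SD over libraries of the log2 CPM, scaled with TMM, had a median of 0.09 over the 45 members tested and 0.12 over all genes tested. At a mean TPM of 10 or more the medians were 0.0799 over 34 members and 0.0866 over 8938 genes. The steadiest members were Stip1, Trap1 and Hsf1, with SDs of 0.03, 0.03 and 0.04. The most variable were Hspb7, Hspa12a and Hspb1, with SDs of 1.09, 0.76 and 0.74, and all 3 had fewer than 20 counts in at least 1 library. For Hspb7 the edgeR test over all genes gave an adjusted p of 0.363, and without replicate 1 an adjusted p of 1.00.

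The small differences that remained ran the same way in many members. On the TMM scale all 7 TRiC subunits were lowest in replicate 3 and highest in replicate 1, with median deviations from the gene mean of 0.10, 0.02, -0.12 and 0.01 in replicates 1 to 4. Hspd1 deviated by 0.13, 0.00, -0.10 and -0.04, and its head-to-head neighbour Hspe1 by 0.16, -0.04, -0.07 and -0.05. Of the 45 members tested, 28 (62.2%) were lowest in replicate 3, against 27.9% of all genes tested, and 27 (60%) were highest in replicate 1, against 29.7%. Both heat shock factors were among the members that ran otherwise: Hsf1 was lowest in replicate 1 and Hsf2 highest in replicate 3. Other members did the same, such as Hspa13 and Dnajb2 (lowest in replicate 1) and Hspa4l and Dnajb4 (highest in replicate 3). None of these genes was called on its own.

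The libraries also differed in depth and in base composition. Replicates 1 and 3 had the fewest counts. Over 12159 genes, the deviations in replicates 1 to 4 had rank correlations with GC content of -0.25, 0.01, 0.07 and 0.26, and with length of -0.15, 0.02, 0.28 and -0.15. The genes share these libraries, so the correlations are descriptions. After trends on GC content and length were removed, 31 of 45 members (68.9%) were lowest in replicate 3, against 36% of genes, and 22 (48.9%) were highest in replicate 1, against 32.4%. All 7 TRiC subunits were still lowest in replicate 3, and 5 of 7 were highest in replicate 1. Of the 2 heat shock factors, 1 was now lowest in replicate 3, against 0 before. On the TPM scale, 19 of 45 members (42.2%) were lowest in replicate 3, against 19.3% of the 13756 genes with a mean of 1 TPM or more, and 10 (22.2%) were highest in replicate 1, against 16.7%. By TPM replicate 1 was the lowest library for 49.0% of those genes and for 12 of the 45 members (26.7%), so the share left for replicate 3 is smaller on this scale. Replicate 3 was thus most often the lowest library of the members on all 3 scales. On the TPM scale replicate 2 was most often their highest (17 of 45, 37.8%, against 25.0% of the genes). By TPM the same held in part for related lists: 9 of 13 endoplasmic reticulum chaperones (69.2%) and 5 of 9 prefoldin and TRiC assistants (55.6%) with a mean of 1 TPM or more were lowest in replicate 3. Of the other regulators of heat shock factors 1 of 2 was, and of the type C J-domain proteins 8 of 25 (32.0%) were. Lower shares were found for the mitochondrial proteases and unfoldases (2 of 9, 22.2%) and the HSP90 co-chaperones (2 of 17, 11.8%). The HSP70 exchange and adaptor factors had the lowest of these shares (1 of 11, 9.09%). The part of depth was not tested.

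**Figure D4:**
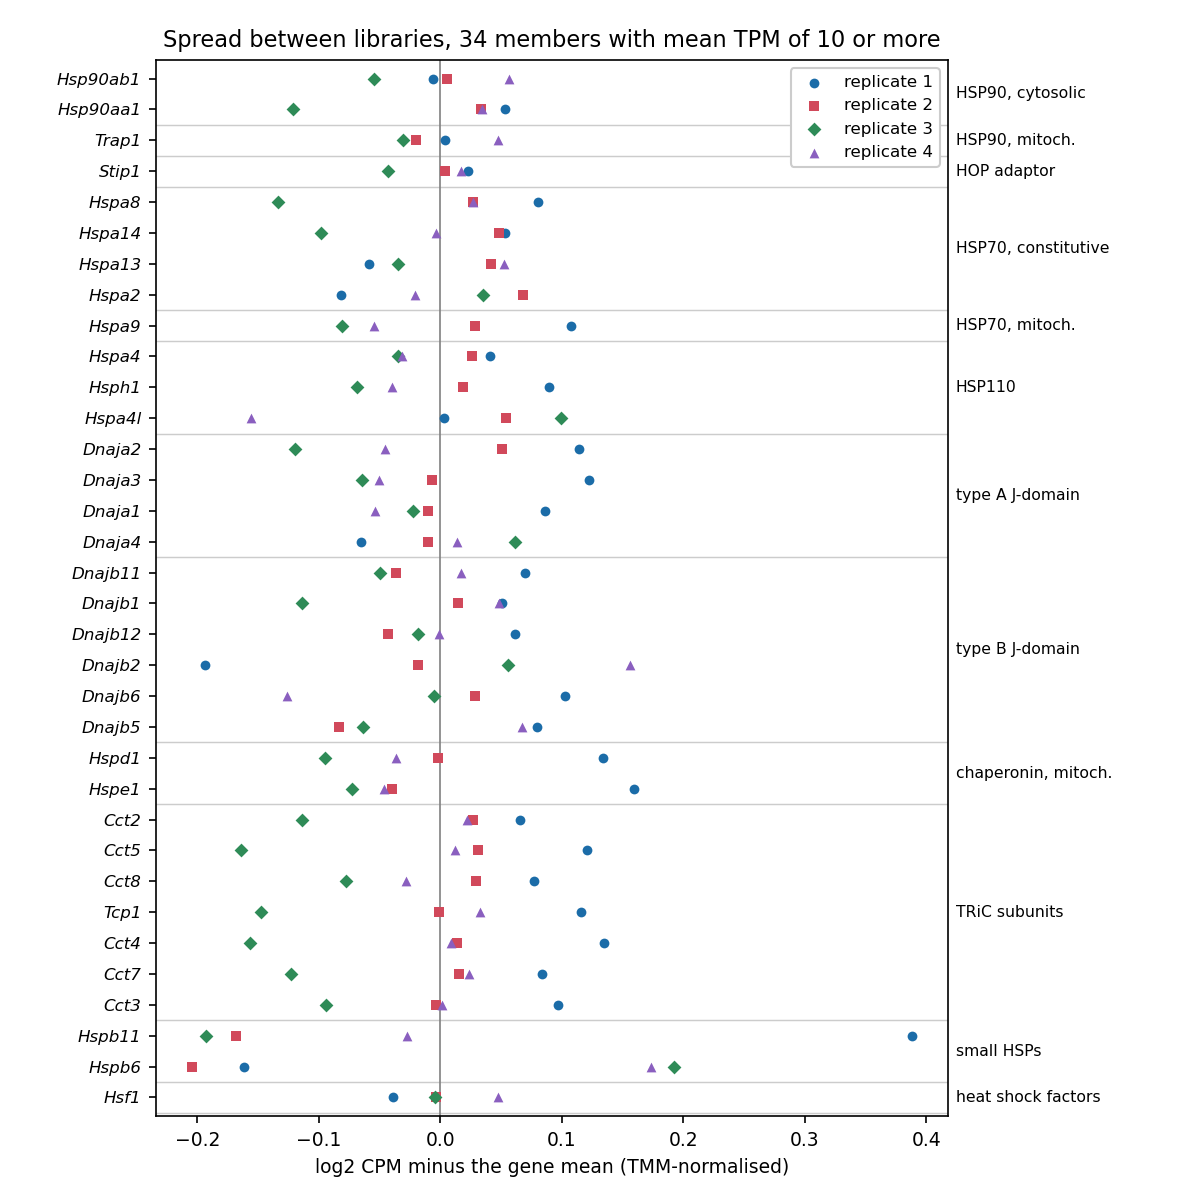
Deviation of log2 CPM (TMM-normalised) from the gene mean in each of 4 libraries, for the 34 members with a mean of 10 TPM or more, grouped by role. Replicate 3 is the leftmost symbol in all 7 TRiC rows and replicate 1 the rightmost; Hspb11 has the widest row, 0.39 in replicate 1.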

How the data were processed

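RNA sequencing of 4 libraries of 1 group of mouse T cells was used. The authors counted read pairs over each gene, without normalization, with featureCounts 1.4.6-p4 on GENCODE M13 exons (mm10), per the file headers, with both ends mapped and the reverse strand setting. The options for multiply mapped reads and for reads in several genes were not set, so genes with near-identical copies can lose counts. The aligner's version is not given in the sources.

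Identifiers were matched to GENCODE M21 (50376 of 50600). TPM were computed from the counts and exonic lengths of the files. Variation between libraries was tested over all genes with edgeR 4.0.16 in R 4.3.3 (filterByExpr, TMM, intercept only, goodness of fit under the trended dispersion, Benjamini-Hochberg at 0.05), checked on simulated data. DESeq2 1.42.0 size factors and limma 3.58.1 served as alternatives. With 1 group, filterByExpr needs the minimum count in all 4 libraries. Log2 CPM used a prior count of 2. Contrasts used a pseudocount of 0.1, which understates differences of low genes. Pairs of libraries differed beyond sampling noise (chi-square per degree of freedom 28.8 to 83.7). Counting-error limits are at 95% confidence.

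The members and gene lists were chosen with earlier results of these data known. Named with values in every library were members with a mean of 100 TPM or more, genes of the contrasts, both heat shock factors and the 3 most and 3 least variable members; of each list, the 4 highest genes. Copies were sought as 50-base windows of the longest coding transcript found in transcripts of other genes. Transcript length as an alternative was chosen after the data were seen. For genes without a coding transcript it was the length of the longest transcript of any class.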

Additional observations from a re-analysis of the deposited data

Results flagged for a closer look

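Over the 4 libraries, 87 values were examined (48 member levels, 27 contrasts and 12 sums). In 6 of them, 1 library stood apart from the other 3 by more than Dixon's 95% limit of 0.829 of the range. For independent, normally distributed values chance gives about 1 in 20, or 4.35 of 87. The contrasts and sums reuse the member levels, so 4.35 is only a rough guide. Hspe1 was high in replicate 1, at 364 TPM against 332 to 337 TPM in the other libraries. Cct7 was low in replicate 3, at 289.6 TPM against 312 to 316 TPM. Replicate 4 was low for Dnaja1, at 41.4 TPM against 43.2 to 43.5 TPM, and for Dnajb6, at 16.3 TPM against 18.1 to 18.4 TPM. Hspb9 at 0.244 TPM in replicate 1 rests on 2 counts, and Hspa1l at 0.0111 TPM in replicate 2 rests on 1 count, with 0 in the other libraries. A gene with counts in 1 library alone is always flagged by this rule.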

How the results depend on the processing

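The count of members at 1 TPM in every library was 41, and between 35 and 43 under the other thresholds, units and lengths, and 41 to 42 without each replicate in turn. The members' share of 1.38% of TPM was 1.48% as a share of counts, 1.52% of nuclear protein-coding TPM, 1.43% with transcript length and 1.36 to 1.39% without each replicate. With transcript length TRiC without Cct6a (31.0% of the members' TPM) passed cytosolic HSP90 (30.0%). With CPM, which ignores length, Dnaja1 minus Dnajb1 turned to 0.51, against -0.92, and Cct2, Cct5 and Cct8 minus Tcp1 turned to -0.18, -0.26 and -0.41; Cct8 minus Tcp1 also turned to -0.38 with transcript length. The other contrasts kept their direction under every setting run, leaving out each replicate included; Hsf1 minus Hsf2 was 2.16 with CPM, and with a pseudocount of 1 Hspa12a minus Hspa12b was 0.18, Cct6a minus Cct6b 7.64 and Hspb11 minus Hspb1 2.84. Genes called variable numbered 66, with 0 members. A common dispersion gave 955 and 4 (Hspb7, Hspb1, Dnajb13 and Hspa12a), limma's test 157 and 1 (Hspb7, adjusted p = 0.017), and leaving out each replicate 41 to 68 and 0. The low end, 41, was without replicate 1; the cause was not tested. At these depths, 0 counts allowed up to 0.0420 to 0.340 TPM for the 6 members without counts. No comparison between groups, paired or not, was possible because there is a single group. The contrasts between genes were paired inside each library.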
